A study of Mus musculus with 2 samples.

Results

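The intron chains described here are spliced transcripts of annotated mouse genes that carry at least 1 splice site absent from the gene annotation and that were seen repeatedly in both of 2 long-read RNA libraries of adrenal gland. An intron chain is the ordered set of introns of a transcript model, whatever its ends. The members were all models of class NNC (the TALON software's class for a model with an unannotated splice site) in annotated genes whose introns matched exactly between the libraries and that had 5 or more reads in each. There were 282 such chains in 248 genes. They come from 40254 NNC chains with reads in either library, of which 3785 were matched in both, and stand beside 11308 multi-exon chains of all classes that reach 5 reads in both. The reads of both libraries chose the members, so read numbers and shares below are a description and carry no test unless one is named.

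Both libraries were made from total RNA of adrenal gland of male B6CASTF1/J mice aged 10 days, an F1 hybrid strain of C57BL/6J and CAST/EiJ parentage, and form 1 group with no treatment. Replicate 2 started from 1 µg of RNA, and spike-in RNAs were added to both. The labels give both samples the same donor, and 2 fields of replicate 2 number its animal differently, so separate animals cannot be assumed and a test between the libraries compares these reads only. Replicate 1 held 971827 reads and replicate 2 held 1407511, with 927914 and 1303420 on annotated genes.

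Splicing removes introns at a donor site, where the intron begins, and an acceptor site, where it ends. Nearly all introns begin with GT, a minority with GC, and end with AG. When a similar sequence lies a few bases away the splicing machinery can use either site, and a shift by a multiple of 3 bases inside the coding part keeps the reading frame while another shift changes it. Acceptors that lie 3 bases apart (NAGNAG) are a widespread form of this choice, and a transcript whose stop codon lies well before its last exon junction can be degraded by nonsense-mediated decay.

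The sequences around the unannotated sites are given for 10 of the best-read chains, by the library with fewer reads of the chain. They were taken among those whose surroundings could be read from GENCODE M21 transcripts or RefSeq promoter windows of the same build. Where the shift is over 15 bases, the annotated site lies outside the line. Each line gives 15 bases on either side of the unannotated site, 5′ to 3′ on the transcribed strand, on build mm10, and the capitals mark the intron's terminal dinucleotide. In a donor the exon stands before the capitals. In an acceptor it follows them. The bases are those of the reference strain, and alleles of the CAST parent were not used here.
Cct6a chain 1 donor, intron 10, 61 bases downstream of the annotated donor, chr5:129794546-129794575, plus strand: gcatggctgaatactGTgttctttagtcag
Capn2 donor, intron 10, 17 bases downstream, chr1:182484171-182484200, minus strand: accggcagaggatggGTggggctccgcctt
Dctn2 donor, intron 2, 10 bases downstream, chr10:127267478-127267507, plus strand: atgcggtaagactgtGTgctacctcaggat
Chmp1a donor, intron 1, 25 bases downstream, chr8:123212626-123212655, minus strand: gtcatccacttcgggGTcggagcgggagtc
Mknk2 donor, intron 1, 42 bases upstream, chr10:80676108-80676137, minus strand: tccgggctgtgctagGTgaggtgacggcgc
Mrpl33 donor, intron 1, 8 bases downstream, chr5:31614016-31614045, plus strand: gtctcttgtaagtcgGTctgaggcggcggc
Uchl1 donor, intron 1, 9 bases downstream, chr5:66676317-66676346, plus strand: cccgaggtaagcataGCtgctgggtcgctt
Ewsr1 acceptor, intron 8, 3 bases upstream, chr11:5079508-5079537, minus strand: cgtttatccccccAGcagcgctggagagcg
Penk acceptor, intron 1, 1 base upstream, chr4:4138132-4138161, minus strand: tcttctctcctacAGcccatggcgcggttc
Rpl7l1 donor, intron 6, 5 bases downstream, chr17:46778032-46778061, minus strand: gcaggagcaggtgagGCgagtgtgtgctgc

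The 282 chains held 321 unannotated sites, 189 donors and 132 acceptors. Most of them were alternative ends of exons that the annotation already has, with 141 alternative donors and 110 alternative acceptors. A further 29 sites ended a first exon lying outside every annotated exon of the gene, 12 bounded an internal exon of that kind and 3 a last exon. The remaining 26 sites belonged to introns that lie wholly inside an annotated exon. No site was annotated in a transcript of another gene on its strand.

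Alternative sites lay close to annotated ones. Of the 251 alternative sites, 135 were within 10 bases of an annotated site of the same kind in their gene, or 53.8% (Clopper-Pearson 95% interval 47.4% to 60.1%). Donors were most often 4 bases downstream of the annotated donor, with 35 of 141 (24.8%). Acceptors were most often 3 bases downstream, with 26 of 110 (23.6%), and 10 more lay 3 bases upstream. The distances overlapped, with 8 acceptors 4 bases downstream and 6 donors 3 bases upstream, and no test of a difference was made.

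**Figure D1:**
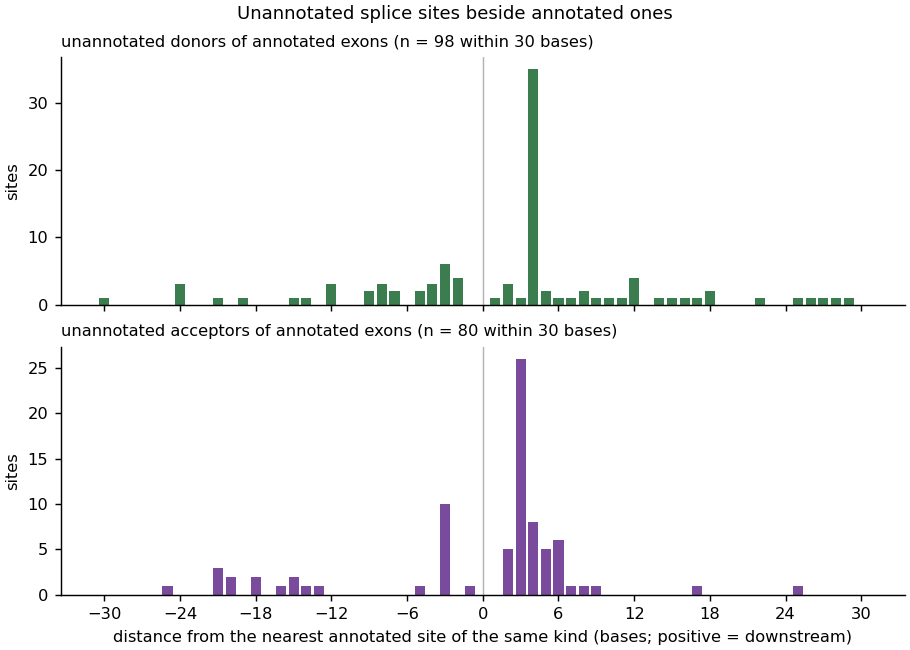
Number of unannotated donors (upper panel) and acceptors (lower panel) at each distance, in bases, from the nearest annotated site of the same kind, for alternative sites within 30 bases. The donors peak at +4 with 35 sites and the acceptors at +3 with 26 and at -3 with 10.

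Short sequence patterns stood at the peaks. At all 26 acceptors 3 bases downstream, the annotated exon began with NAG, where N is any base, so that AG stood at both ends of the shift. Over all 244765 annotated acceptors whose exon bases could be read, 5.56% had an exon beginning with NAG. Among the 26, the exon began with CAG at 14, TAG at 5, GAG at 4 and AAG at 3. Over all annotated acceptors GAG was the commonest of these, at 3.24%, against 0.918% for CAG and 0.190% for TAG. For donors 4 bases downstream, the annotated intron could be read at 8 of 35 sites and began with GTNNGT at 7 of them, as it did at 34.2% of the 40246 annotated donors that could be read. At acceptors 3 bases upstream, AG stood at both positions in 2 of the 3 sites that could be read. An acceptor that reads AG 3 bases downstream makes the annotated exon begin with NAG. A GT donor 4 bases downstream likewise completes GTNNGT where the annotated intron begins with GT. The matches to NAG and GTNNGT thus restate the dinucleotides of the shifted sites and lend no further support. The motifs were read on the transcribed strand, and a match is a description of letters only.

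Terminal dinucleotides could be read for 193 of the 321 sites, those within annotated exons or promoter windows. Of 97 readable donors 88 were GT and 9 were GC, and of 96 readable acceptors 92 were AG and 4 were AT. The GC donors include Uchl1 and Rpl7l1, and an AT acceptor belongs to Rwdd4a. At Chmp1a, Mrpl33, Uchl1 and Ewsr1 the intron could be moved by 1 base without changing the spliced sequence, so its dinucleotides depend on where the alignment placed it. In Rfng, an intron inside an annotated exon could be moved by 168 bases. In chains seen in 1 library alone, 10648 of 11825 readable donors were GT and 14947 of 15365 readable acceptors were AG.

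The composition of the sites differed in part from that of NNC chains that were read less. Acceptors 3 bases downstream made up 8.51% of alternative acceptors in the 36469 chains seen in 1 library alone, and 26.7% in the 319 of those with 5 or more reads there. Donors 4 bases downstream made up 24.2% of alternative donors in chains of 1 library and 18.2% where such a chain had 5 or more reads, against 24.8% in the members. Sites of internal exons outside the annotation made up 3.74% of the members' sites, 21.4% of those in chains of 1 library and 12.5% where such a chain had 5 or more reads. These shares were not tested, since the members are the well-read end of the same class.

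Of the 20 best-read chains, ranked by the library with fewer reads, 13 were the most-read spliced form of their gene. Idh3g encodes the gamma subunit of the mitochondrial NAD-dependent isocitrate dehydrogenase, and its chain had 419 reads in replicate 1 and 557 in replicate 2. That was 76.2% and 60.3% of the gene's reads (intervals 72.4% to 79.7% and 57.1% to 63.5%), and the chain was the gene's most-read spliced form. Cct6a chain 1, from a gene for a subunit of the cytosolic chaperonin, had 278 and 312 reads, or 85.5% and 83.9% of the gene's reads. It combines an unannotated donor 61 bases downstream with an unannotated acceptor 33 bases upstream in an intron of 50376 bases, and GENCODE M21 types this gene as a processed transcript. The annotated chain with the same other introns had 0 reads in both libraries, a count that allows up to 3.

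Several other leading chains also held most reads of their gene. Pitpna, a phosphatidylinositol transfer protein, had 209 and 200 reads (91.7% and 84.7% of gene reads). Capn2, the catalytic subunit of calpain 2, had 116 and 148 reads (86.6% and 85.1%). Chmp1a, a component of the ESCRT-III membrane machinery, had 100 and 180 reads (89.3% and 76.9%). Mrpl33, a protein of the large mitochondrial ribosomal subunit, had 63 and 288 reads (82.9% and 89.2%), so its read number differed more between the libraries than its share did.

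Structural and redox genes followed. Col6a1, an alpha chain of collagen VI, had 115 and 113 reads (49.4% and 61.4%) in a chain of 32 exons that held an unannotated donor and an unannotated acceptor. Txnrd2, the mitochondrial thioredoxin reductase, had 110 and 112 reads (70.1% and 64.7%). Hacd1, a dehydratase of very-long-chain fatty acid elongation, had 46 and 87 reads (82.1% and 71.9%). In each of these 3 genes the chain was the most-read spliced form.

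Other chains of high read number were minor forms. Sdhb, the iron-sulfur subunit of succinate dehydrogenase, had 73 and 107 reads with an acceptor 6 bases downstream, against 841 and 1595 reads of the annotated chain that is otherwise the same. Hnrnpf chain 1, in a gene for an RNA-binding splicing regulator, began in an unannotated first exon of 121 bases and had 74 and 77 reads (12.1% and 10.9%). Ewsr1, another RNA-binding protein gene, had 96 and 51 reads (23.6% and 17.3%) against 195 and 150 of its annotated chain. Dctn2, the dynactin subunit dynamitin, had 106 and 111 reads against 132 and 152. Api5 had 92 and 70 reads against 95 and 77 of its annotated chain. Rpl7l1 had 49 and 55 against 104 and 76.

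**Figure D2:**
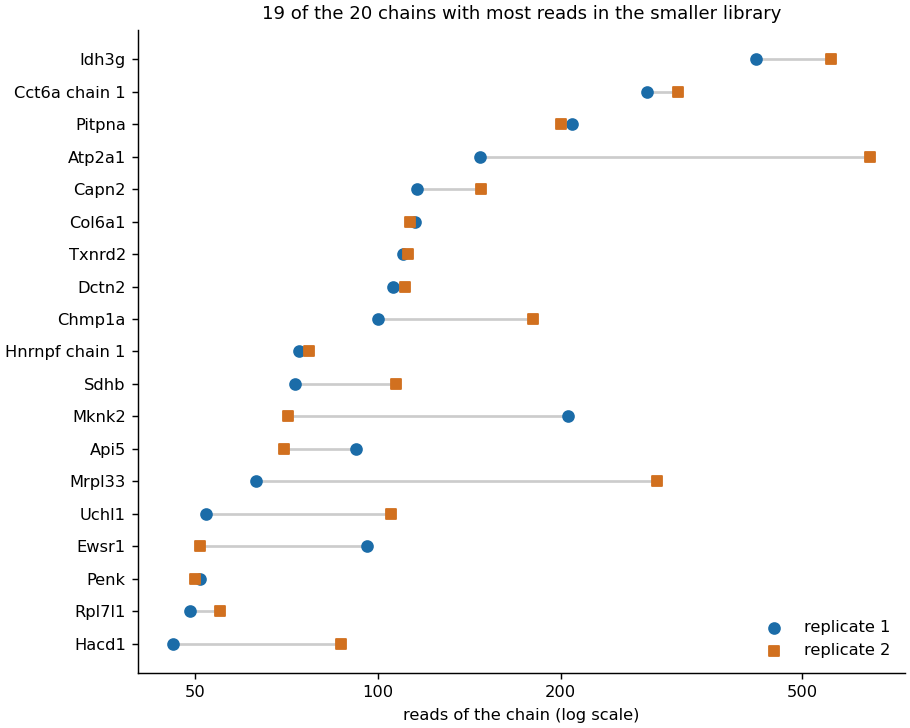
Reads (log axis) of 19 of the 20 best-read chains, ranked by the library with fewer reads, with replicate 1 as circles and replicate 2 as squares. Idh3g leads with 419 and 557 reads, and the widest gaps between libraries belong to Atp2a1 (147 and 646), Mrpl33 (63 and 288) and Mknk2 (206 and 71).

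Across the members, the share of the gene's reads ran from 0.064% to 100% with a median of 5.64% (mean of both libraries, 281 chains). In both libraries 26 chains held 50% or more of their gene's reads, 105 held 10% or more and 53 held under 1%. The chain was the most-read spliced form of its gene in 53 cases. Both extremes rest on the gene's depth: the lowest belongs to Trf chain 6, with 6 and 11 reads of 7417 and 23130, and the highest to the lncRNA gene Gm29642, whose 5 and 5 reads were all its reads. Together the members made up 6087 and 7263 reads, or 17.8% and 19.8% of NNC reads and 0.656% and 0.557% of reads on annotated genes. At the threshold, 56 members had 5 reads in the smaller library and 115 matched chains had 4.

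At the single junction, the median gap in local share between the libraries was 0.843 percentage points over 141 alternative donors and 1.35 over 110 alternative acceptors. The local share of a site is the reads of its intron among all reads of introns that share the intron's other end. Across the 251 alternative sites the log2 local share had r = 0.983 between the libraries, a description over sites that share genes and libraries. Intervals of both libraries overlapped at 249 sites, which does not show that the values were equal. Intervals are wide where reads are few, and no such count was made over annotated junctions, so nothing is read from it. The sites without overlap were Alas1 chain 2, at 0.362% and 3.64%, and an acceptor of the pseudogene Cyp21a2-ps, at 45.4% and 27.8%. Cyp21a2-ps and Cyp21a1 are near-identical copies, so the assignment of reads to either is uncertain.

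The median local share differed between the kinds of site, but the kinds were not compared at equal depth. A rare site can reach the read threshold only in a gene with many reads. Among chains that differ within the coding part, the median gene reads were 1696.5 where 4 bases were gained and 175.5 where 3 were lost. The part of depth in the medians below was not tested. Donors 4 bases downstream had a median local share of 1.57% with a range of 0.125% to 100%. Most were rare, such as Star chain 1 (0.269% and 0.280%) and Chga chain 1 (0.481% and 0.426%), while at Idh3g (86.7% and 86.9%), Pitpna and Col6a1 (both 100% in each library) the unannotated site took nearly all reads. Acceptors 3 bases downstream had a median of 25.2%, and those 3 bases upstream 42.5%. Ewsr1 (32.2% and 24.5%) and the Y-linked RNA helicase gene Ddx3y (41.5% and 39.3%) were of this kind, while Star chain 2 was at 0.240% and 0.245%. At 38 sites the unannotated site took 90% or more of local reads in both libraries, and at 41 it took under 1% in both. The 38 include sites of Cct6a chain 1, Cep89 and Got2 whose intron is unannotated at both ends. There the local share does not set the site against an annotated one.

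Of the 282 chains, 215 equalled an annotated chain in every intron except at the unannotated sites. The difference lay in the coding part in 141, the 5′ UTR in 55 and the 3′ UTR in 6, while 8 followed a noncoding transcript and 5 spanned an end of the coding part. In 162 of the 215 the annotated chain had more reads in both libraries, and in 38 the unannotated chain did.

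Within the coding part, 65 chains kept the reading frame and 76 shifted it. Frame-keeping chains had a median share of 10.3% of gene reads and frame-shifting chains 1.40%. The median gene reads, as a mean of both libraries, were 175.5 and 567.5, and a chain with a low share can reach 5 reads only in a gene with many. In genes with under 500 reads the median shares were 18.5% for 43 frame-keeping chains and 5.25% for 37 frame-shifting ones, with median gene reads of 89 and 183. In genes with 500 or more they were 0.707% for 21 and 0.554% for 39, so the difference lay mostly in genes of lower read number. No test was made of these shares, since the reads chose the members.

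By length, 25 chains lost 3 bases (median share 13.3%) and 6 with a share gained 3 (23.3%), while 25 gained 4 bases (0.857%), 7 lost 4 (1.21%) and 8 lost 2 (0.548%). The median gene reads were 175.5 where 3 bases were lost and 115.5 over all 7 chains that gained 3. They were 1696.5 where 4 were gained, 913.5 where 4 were lost and 2044 where 2 were lost. These shares were thus not compared at equal depth. Sdhb lost 6 bases and went from 282 to 280 codons. Ewsr1 gained 3 and went from 655 to 656 codons, and Ap2a2, a subunit of the AP-2 clathrin adaptor, went from 938 to 939. Cyp11a1 chain 1 lost 108 bases and went from 526 to 490 codons.

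**Figure D3:**
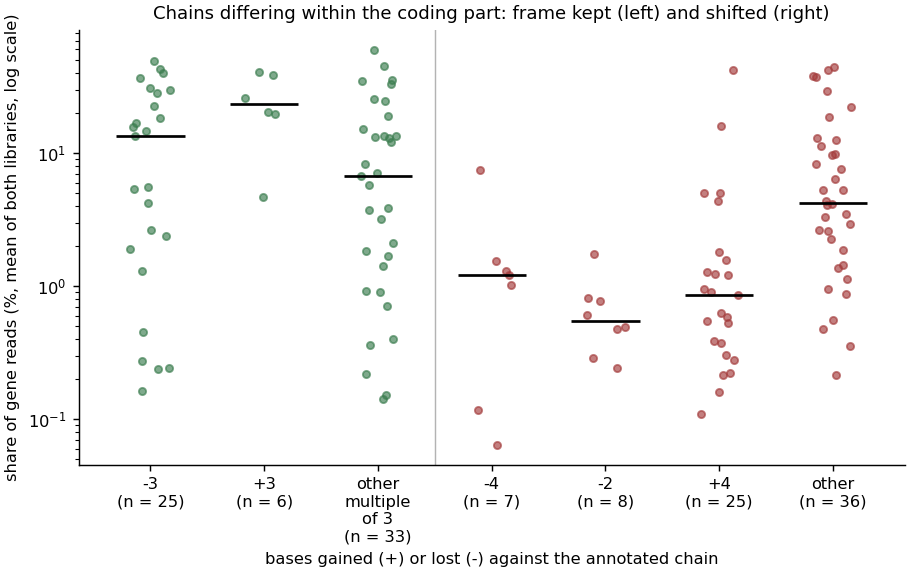
Share of gene reads (percent, mean of both libraries, log axis) of 140 chains that differ from an annotated chain within the coding part, grouped by bases gained or lost, with each point a chain and bars at medians. Chains that lose 3 bases have a median of 13.3% and those that gain 4 bases 0.857%, in genes with a median of 175.5 and 1696.5 reads.

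The reading frame from the annotated start codon could be read in full for 87 of the chains. In 28 of them, all frame-shifting, the first stop codon lay more than 50 bases before the last exon junction, the usual position rule for nonsense-mediated decay. Dctn2 had the largest share among these, 40.6% and 35.2% of gene reads, with a frame of 38 codons in place of 402. Trf chain 1 had 372 codons in place of 697 and Idh3a chain 2 had 73 in place of 384, at shares under 1% in both libraries. The other 59 had no such stop, among them 51 frame-keeping chains.

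The steroid-making genes of the cortex held 13 of the chains, in 7 of 25 listed genes. These were 10.1% of the 129 chains with 5 or more reads in each library in that list, against 2.49% over all genes. The genes of these chains had a median of 4518 reads, against 216 over all members. Their median share was 0.219%. In other lists, liver secreted proteins were at 10.1%, brown fat and adipocyte genes at 7.58%, the medulla at 7.55% and respiratory genes at 6.57%. The median reads of the genes of these chains were 15274, 2384, 1673 and 1078.5 in that order. Imprinted genes were at 4.84%, ubiquitin and proteasome genes at 4.11% and splicing regulators at 2.63%, with medians of 1278.5, 364 and 659. Genes of cholesterol synthesis and uptake (2.38%), cytosolic ribosomal proteins (0.680%) and the listed long noncoding RNAs (0%) lay below 2.49%. These rest on 1 of 42, 1 of 147 and 0 of 14 chains. The cholesterol member's gene had 9642 reads and the ribosomal one 128. No test was made between lists. Cyp11b1, the last enzyme of corticosterone synthesis, had 47 and 26 reads with an unannotated acceptor that adds 21 bases (1.00% and 0.838% of gene reads). Hsd3b1 had 30 and 24 reads (0.588% and 0.609%), and Akr1b7, an aldo-keto reductase of the adrenal cortex, had 22 and 18 (1.02% and 0.874%).

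The other steroid-making genes also held rare forms. Cyp21a1, the steroid 21-hydroxylase, held 4 chains, of which chain 1 had 25 and 18 reads and chain 3, with a frame of 73 codons in place of 487, had 24 and 5. Cyp11a1, the side-chain cleavage enzyme, held 2 chains, with 16 and 20 reads and with 13 and 13. Star, which carries cholesterol into mitochondria, held 2, with 9 and 8 reads in a chain that gains 4 bases and 7 and 6 in one that loses 3. The shares of the Cyp21a1, Cyp11a1 and Star chains ran from 0.108% to 0.387% in either library. Nr5a1, the transcription factor SF-1, had 2 chains at higher shares, 2.91% and 2.27% for chain 1 and 2.47% and 1.70% for chain 2, and both differed in the 5′ UTR.

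In 2 of the 3 genes of the chromaffin medulla with members, the chain was the main form. Penk encodes proenkephalin, and its chain with an acceptor 1 base upstream had 51 of 54 gene reads in replicate 1 and 50 of 52 in replicate 2, with 0 reads of the annotated chain in both. Uchl1, a ubiquitin hydrolase of neurons and neuroendocrine cells, had 52 of 61 and 105 of 116, with 5′ ends 151 bases apart between the libraries. Chga, a granule protein, held 2 rare chains that each gain 4 bases, with 16 and 9 reads and with 7 and 12.

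Mitochondrial respiratory genes held 13 chains in 12 of 81 listed genes, with a median share of 1.02%. Beside Sdhb, Ndufab1 had 22 and 45 reads (6.98% and 5.21%), Atp5j 16 and 44 (7.73% and 6.79%), and Sdhd 11 and 16 (1.13% and 1.29%). Other members there were rarer, among them Cox4i1 chain 1 with 7 and 14 reads. Proteasome genes held chains in Psmd8 (10 and 23 reads) and Psmc3 (6 and 5). Splicing regulators held 4, with Ddx5, an RNA helicase, at 8 and 6 reads beside Hnrnpf and Ewsr1. Cytosolic ribosomal protein genes held 1, in Rps24, at 15 of 48 and 51 of 208 gene reads, and the 43 listed long noncoding RNAs held 0. Of those 43 genes 33 had reads, and they held only 14 chains with 5 or more reads in each library, too few to set a count of 0 apart from the 2.49% over all genes.

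Genes listed for liver and for fat also held members, and the cells that gave these reads were not identified. Trf, the plasma iron carrier transferrin, held 6, more than any other gene, of which chain 1 had 46 and 85 reads and chain 2 had 23 and 57. TALON gave Trf chain 5, with 8 and 12 reads, to an overlapping gene in replicate 1, so it has no share. Rbp4, the plasma carrier of retinol, had 22 and 77 reads. Car3 and Cidea, fat-cell genes, had 28 and 33 reads and, for Cidea chain 1, 11 and 31. Summed hepatocyte markers (Alb, Apoa1, Ahsg) were at 8003 and 20997 CPM (reads per 1000000 on annotated genes), skeletal muscle markers (Acta1, Ckm) at 745 and 2036, erythroid markers (Hba-a1, Hbb-bs, Alas2) at 1104 and 3752, brown fat markers (Ucp1, Cidea) at 5931 and 5532, cortex markers (Star, Cyp11a1, Cyp21a1, Hsd3b1, Cyp11b1) at 30412 and 19396, and medulla markers (Th, Dbh, Pnmt, Chga, Chgb) at 11403 and 6053. Single markers did not all follow their sum: Ucp1 was at 4451 and 2927 CPM and Cidea at 1480 and 2605. Alas2 was at 98.1 and 56.0, Pnmt at 639 and 707, and Cyp11a1 at 7423 and 7442. The part of these differences in the members' read numbers was not tested. The kidney markers Umod and Slc12a1 were at 0 reads, and Aqp2 had 5 in each library. In such bulk RNA, fewer cells of a type and less RNA per cell cannot be told apart.

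Among the 3 listed imprinted genes with members, Cd81 had 24 and 14 reads, Cdkn1c, a growth inhibitor, 11 and 11, and Nap1l4 7 and 7. The unannotated donor of the Cdkn1c chain took 38 of 40 and 59 of 66 local junction reads (95.0% and 89.4%). A further 2 Cdkn1c chains, with 119 and 115 and with 133 and 111 reads, were NNC in 1 library and NIC in the other. Apoe was the only listed gene of cholesterol synthesis and uptake with a member, at 10 and 17 reads (0.303% and 0.106%). Among fat-cell genes, Pparg, the master regulator of adipocytes, had 17 and 13 reads with a donor 137 bases upstream, or 13.9% and 9.22% of its reads.

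Several genes held 3 or more members. Beside Trf and Cyp21a1 these were Idh3a, Acadl, Alas1, Pkm and Tsc22d3. In Tsc22d3, the glucocorticoid-induced leucine zipper gene, the 3 chains began in unannotated first exons and held 10.1%, 11.0% and 5.29% of gene reads in replicate 1 and 12.8%, 5.86% and 2.76% in replicate 2. In Idh3a, the alpha subunit of the enzyme that Idh3g belongs to, the 3 chains held 0.456% to 1.69%. Acadl, an acyl-CoA dehydrogenase, had 25 and 47 reads in chain 1 and 17 and 17 in chain 2, and the Pkm chains, of pyruvate kinase, had 5 to 11 reads each.

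The share of gene reads was compared between the libraries by setting each chain against the rest of its gene in Fisher's exact test, two-sided, with Benjamini-Hochberg adjustment over 14531 chains. Of all chains tested 13.7% had an adjusted p under 0.05. Of the 281 members tested, 12 did (4.27%), with 2 higher (0.712%) and 10 lower (3.56%) in replicate 2, against 4.34% and 9.34% of all chains in those directions. Among chains that reach 5 reads in both libraries 12.8% were called. Known chains there were called at 13.1% and NIC chains, TALON's class for new combinations of known splice sites, at 4.51%. Even so, 60 NIC chains with 5 or more reads in each library held a splice site outside GENCODE M21. Nothing is read from these counts, because the rule used the same reads and the number of reads differs between classes.

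**Figure D4:**
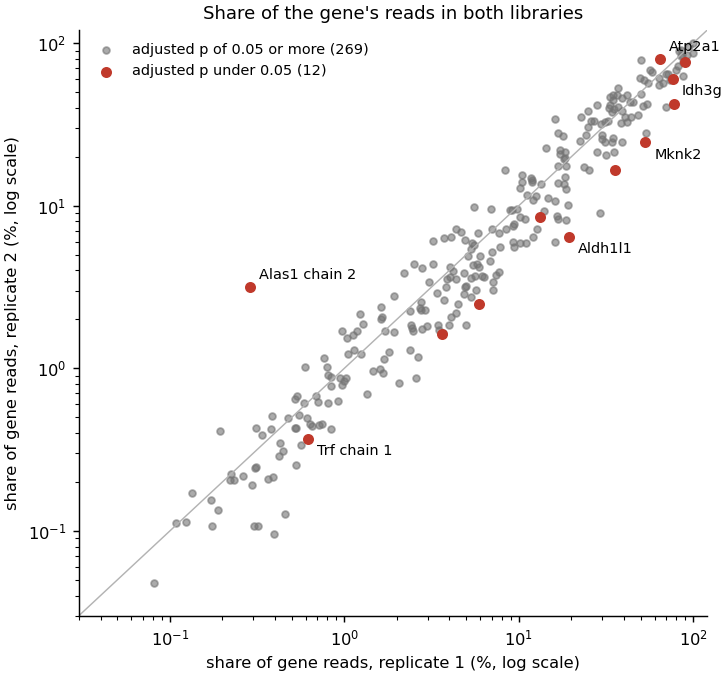
Share of gene reads of 281 chains in replicate 1 (x axis) and replicate 2 (y axis), both in percent on log axes, with the line of equal shares and the 12 chains with an adjusted p under 0.05 (Fisher's exact test) in red. Alas1 chain 2 lies farthest above the line at 0.286% and 3.18%, and Mknk2 lies below it at 53.2% and 24.5%.

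Of the 12 calls, 9 were lost when models of TALON's incomplete splice match (ISM) and Genomic classes were left out of the gene's reads. That setting also tested fewer chains and called 1.23% of them, and a lost call does not show that the share no longer differed. Mknk2, a kinase of the translation factor eIF4E, held 53.2% and 24.5% of gene reads (adjusted p = 3.7e-12, Fisher's exact test). ISM and Genomic models took 17.8% of the gene's reads in replicate 1 and 60.3% in replicate 2. Without them the share was 64.8% and 61.7% (adjusted p = 1). The local share of its donor was 76.9% and 75.9%.

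Idh3g had the same arrangement. Its share of 76.2% and 60.3% (adjusted p = 1.8e-08, Fisher's exact test) became 78.9% and 80.0% without ISM and Genomic models, with an adjusted p of 1 and the opposite sign. Those models took 3.46% and 24.6% of its reads. Over all annotated genes they took 11.3% and 20.0%. Chmp1a went from 89.3% and 76.9% to 91.7% and 88.7%, and Rrp1, a nucleolar protein of ribosome assembly, from 77.8% and 42.4% to 90.3% and 73.7%.

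The chains called with both denominators included Atp2a1 and Alas1 chain 2. Atp2a1, the calcium pump of fast skeletal muscle, held 64.5% and 80.3% of gene reads (adjusted p = 3.7e-05, Fisher's exact test) and 72.8% and 84.2% without those models (adjusted p = 0.029). Its gene had 228 and 804 reads, and muscle markers were also higher in replicate 2, a link that was not tested. Its donor's local share was 99.5% and 99.4%. Alas1 chain 2, in the gene for the first enzyme of heme synthesis, had 9 and 71 reads of 3143 and 2234 (adjusted p = 1.6e-16, Fisher's exact test). The local share of its acceptor was 0.362% and 3.64%, with intervals that did not overlap. Of the erythroid markers, Hba-a1 (568 and 2306 CPM) and Hbb-bs (438 and 1390) were higher in replicate 2 and Alas2 (98.1 and 56.0) was lower. Summed hepatocyte (8003 and 20997 CPM) and muscle (745 and 2036) markers were also higher there. Summed cortex, medulla and brown fat markers were lower. The part of any of these tissues in the change of Alas1 chain 2 was not tested.

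Ap2a2 and Aldh1l1, a folate enzyme, kept a lower share in replicate 2 without those models by about as much, although the call was lost. Ap2a2 held 35.6% and 16.7% of gene reads (adjusted p = 0.018, Fisher's exact test) and 41.1% and 23.5% without those models (adjusted p = 0.36). Aldh1l1 held 19.4% and 6.40% (adjusted p = 0.0066) and 21.2% and 7.98% (adjusted p = 0.12), and its call held without single-exon models (adjusted p = 0.020). The donor of its unannotated first exon had a local share of 20.7% (interval 13.7% to 29.2%) and 7.56% (4.09% to 12.6%), which did not overlap. Trf chain 1 held 0.620% and 0.367% with all models and 0.633% and 0.385% without ISM and Genomic models, a change of nearly the same size. Dlst, a subunit of the oxoglutarate dehydrogenase complex that the naming rules do not cover, held 5.90% and 2.49%, and 7.63% and 5.05% without them. Rbp4 held 3.61% and 1.62%, and 4.03% and 2.49%.

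**Figure D5:**
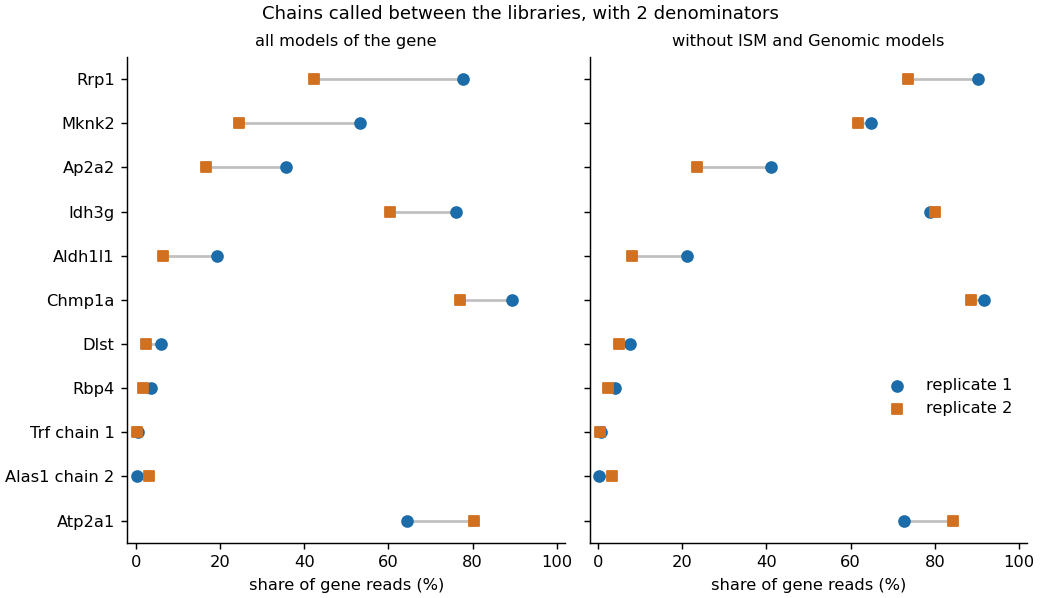
Share of gene reads (percent) of 11 of the 12 called chains in replicate 1 (circles) and replicate 2 (squares), with all models of the gene counted (left) and without ISM and Genomic models (right). Mknk2 closes from 53.2% and 24.5% to 64.8% and 61.7%, and Atp2a1 stays apart at 72.8% and 84.2%.

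The ends of the chains were close between the libraries. The 5′ ends lay within 10 bases in 224 chains (79.4%) and the 3′ ends in 249 (88.3%), on the same base in 202 and 228. For 733 NIC chains the shares within 10 bases were 77.8% and 79.9%, and for 8717 Known chains both were 100%. Whether the ends of NNC models were set from the annotation was not tested, so closeness here does not show independent ends. The 3′ ends of Penk lay 305 bases apart.

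The class itself depended on the library. Beside the 282 members, 112 chains had 5 or more reads in each library and were NNC in only 1, of which 97 were NIC in the other. The one with most reads in the smaller library was a Suds3 chain with 132 and 163 reads, ISM in replicate 1 and NNC in replicate 2. Over all classes, 471 chains with 5 or more reads in each library held a splice site outside GENCODE M21, among them 60 of class NIC.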

How the data were processed

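Long reads of 2 adrenal libraries were analysed from the deposited tables. Per the file headers, the counts are raw reads per transcript model in 1 library, and the deposited files also give exon numbers, lengths and 1-based start and end positions in bases on mm10. The authors built the models with TALON, per the file headers, with mm10 and GENCODE M21, per the deposited readme texts, in 1 table per library. The aligner and tool versions were not given in the sources used here.

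Models of both libraries were matched on chromosome, strand and every intron, and splice sites were compared with GENCODE M21 transcripts of the same gene. Bases were read through the exons of GENCODE M21 transcripts and RefSeq GRCm38.p6 promoter windows, with 0 conflicts, so sites in introns were mostly unreadable. CPM is reads per 1000000 on annotated genes. A count of 0 allows 3 reads, or 3.23 and 2.30 CPM. Clopper-Pearson intervals at 95% and this floor cover only counting error. Chains whose reads sum to 10 or more were tested by Fisher's exact test with Benjamini-Hochberg adjustment (scipy 1.17.1, numpy 2.4.6, pandas 2.3.3, Python 3.11.15), checked on simulated data. No count model could be fitted with 2 libraries of 1 group. Scaling alternatives used edgeR 4.0.16 and DESeq2 1.42.0 in R 4.3.3, and plots matplotlib 3.10.9.

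Chains were named by these rules: the 20 with most reads in the smaller library, the 10 with the largest share in genes of 20 or more reads in each, up to 6 in each of 11 gene lists, the 5 with the largest called difference in each direction, genes with 3 or more members, and sequences for up to 12, of which 10 are shown. Other chains were picked as extremes or examples after their values were seen. Members and lists were chosen with earlier results of these data known. A chain's gene can differ between libraries, which left 1 member without a share. Some members are not reported here by name or sequence.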

Additional observations from a re-analysis of the deposited data

How the results depend on the processing

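The number of chains follows the read threshold. It was 598 at 3 or more reads in each library and 124 at 10 or more. Asking for 5 reads in 1 library only gave 628 to 654, and taking chains of any class with a splice site outside GENCODE M21, an alternative added after seeing the data, gave 471. The share of alternative sites within 10 bases was 54.9% at 10 or more reads. Site classes were the same with annotation in any gene, and summed CPM (6066 ± 698, SD, n = 2) was 6046 with TMM and 6047 with DESeq2 size factors. The median share of gene reads rose from 5.64% to 6.98% without ISM and Genomic models and ranged from 5.59% to 6.0% when 1 library was left out.

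The count of 12 chains that differ between the libraries depends on the denominator and on the adjustment. It was 4 without ISM and Genomic models (3 of the 12 and Suds3), 4 without single-exon models, 6 with every matched chain tested, 4 with Bonferroni adjustment and 12 with 20 or more reads over both libraries. Among single called chains, Idh3g changed sign without ISM and Genomic models, with p = 1 after adjustment (Fisher's exact test), and the call was lost in 30 of the other combinations of chain and setting and held in 29. Single-exon models took 6.53% of reads on annotated genes in replicate 1 and 14.3% in replicate 2. No paired analysis was possible because the series has 1 group. Without either library no comparison of shares could be made. With a median of 8.5 reads in the smaller library, shares of most members rest on few reads, and the size of change that the test could detect in them was not computed. Reads after PCR are not independent molecules.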
